A study of Homo sapiens with 8 samples.

Results

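Binding of the C-clamp mutant of dnTCF1E shortly after its induction was described from the dnTCF1Emut 2 h list, which held 1883 peaks. Each 2 h peak was called listed at 0 h if it shared at least 1 base with a peak of uninduced cells of the same line, and AT-rich if under 15% of its sequence was G or C. The 1462 peaks that were neither listed at 0 h nor AT-rich are called new sites and are the subject here. They made up 77.6% of the 2 h list and were set against the other 421 peaks of that list, 28 listed at 0 h and not AT-rich, 298 listed at 0 h and AT-rich, and 95 new and AT-rich.

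The cells were DLD-1, a human colon cancer line, carrying a doxycycline-inducible gene for FLAG-tagged dnTCF1Emut, kept under blasticidin and zeocin. The 2 h cells received 1 µg/mL doxycycline for 2 h, and the 0 h cells had the same inserted gene and no doxycycline. The protein lacks the part of TCF1 that binds β-catenin and carries substitutions in the C-clamp that remove its DNA binding. ChIP-seq was done with beads carrying a FLAG antibody, and duplicates were pooled by the authors before peak calling. Each condition is therefore 1 list, with no spread between replicates and no test of the difference between times. The protein was expressed from an introduced gene in 1 line of cells, and sites of the natural full-length TCF1 were not measured.

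TCF1 is 1 of the LEF/TCF factors that carry Wnt signals to DNA. Its HMG box binds the Wnt response element (WRE), and in the E isoforms a C-clamp beside it contacts a GC-rich Helper site. When β-catenin is bound, these factors activate genes of the intestinal crypt, and without it they repress them through TLE corepressors. A WRE is written here as CTTTG followed by 2 bases that are each A or T and by C or G, and a Helper site as A or G followed by CCGCC. The deposited counts of both are matches within the peak.

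The SP5, YAP1 and UGT2B10 promoters are printed to show what the protein was found on at 3 gene starts, with the WREs in capitals. These are the 250 bases before the TSS in RefSeq on GRCh38.p14, all on the plus strand, at chr2:170715087-170715336, chr11:102110197-102110446 and chr4:68815744-68815993. The peaks are placed on hg19, so the position of a peak within these bases holds only if both annotations use the same TSS, which was not tested.
SP5: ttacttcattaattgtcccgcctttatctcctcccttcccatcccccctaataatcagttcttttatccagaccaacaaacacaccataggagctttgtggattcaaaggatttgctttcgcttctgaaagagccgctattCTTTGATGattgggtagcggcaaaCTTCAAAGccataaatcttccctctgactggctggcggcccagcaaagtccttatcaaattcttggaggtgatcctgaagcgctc
YAP1: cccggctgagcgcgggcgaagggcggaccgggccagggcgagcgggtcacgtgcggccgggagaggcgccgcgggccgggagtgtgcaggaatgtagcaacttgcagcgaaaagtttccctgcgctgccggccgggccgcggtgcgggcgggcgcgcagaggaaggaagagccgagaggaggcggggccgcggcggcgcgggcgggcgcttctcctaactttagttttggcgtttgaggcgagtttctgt
UGT2B10: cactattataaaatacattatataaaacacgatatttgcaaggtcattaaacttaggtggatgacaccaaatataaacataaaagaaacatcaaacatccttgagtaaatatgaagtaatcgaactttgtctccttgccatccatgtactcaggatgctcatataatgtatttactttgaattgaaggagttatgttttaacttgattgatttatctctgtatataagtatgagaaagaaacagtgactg
In SP5, which encodes a zinc finger repressor of Wnt targets, a WRE reads CTTTGATG from 109 to 102 bases before the TSS. Another WRE lies on the opposite strand from 85 to 78 bases before the TSS, and appears as CTTCAAAG in the printed strand. A Helper site of SP5 was found on the opposite strand from 52 to 47 bases before the TSS and shared no base with a WRE. The SP5 peak ran from -521 to -29 relative to its hg19 TSS and held 3 WREs and 2 Helper sites. For YAP1, the coactivator that is restrained by Hippo signaling, these bases hold no WRE and 1 Helper site, from 59 to 54 bases before the TSS. The YAP1 peak ran from -552 to -84 and held neither motif. The UGT2B10 peak, at a gene for a glucuronidating enzyme with close relatives nearby, spanned the whole window and held neither motif. On either strand, a WRE was found in 5.56% and a Helper site in 35.9% of 35116 RefSeq promoter windows of this length.

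The lists of 0 and 2 h had different base composition. Of the 708 peaks at 0 h, 587 were AT-rich (82.9%, 95% interval 79.96 to 85.5), and 426 were annotated to the repeat (TA)n. In the line of dnTCF1EWT, the protein with an intact C-clamp, 0 of 1907 peaks at 0 h were annotated to (TA)n. Of the 1883 dnTCF1Emut peaks at 2 h, 393 were AT-rich (20.9%, interval 19.1 to 22.8). All intervals are Wilson intervals for counting error over peaks and do not cover variation between cultures. Of all 2 h peaks, 1557 had no overlapping 0 h peak, which is 82.7% and is set by the rule that chose the new sites. Among AT-rich 2 h peaks, 75.8% (71.4 to 79.8) were listed at 0 h, and among peaks that were not AT-rich 98.1% (97.3 to 98.7) were new.

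**Figure D1:**
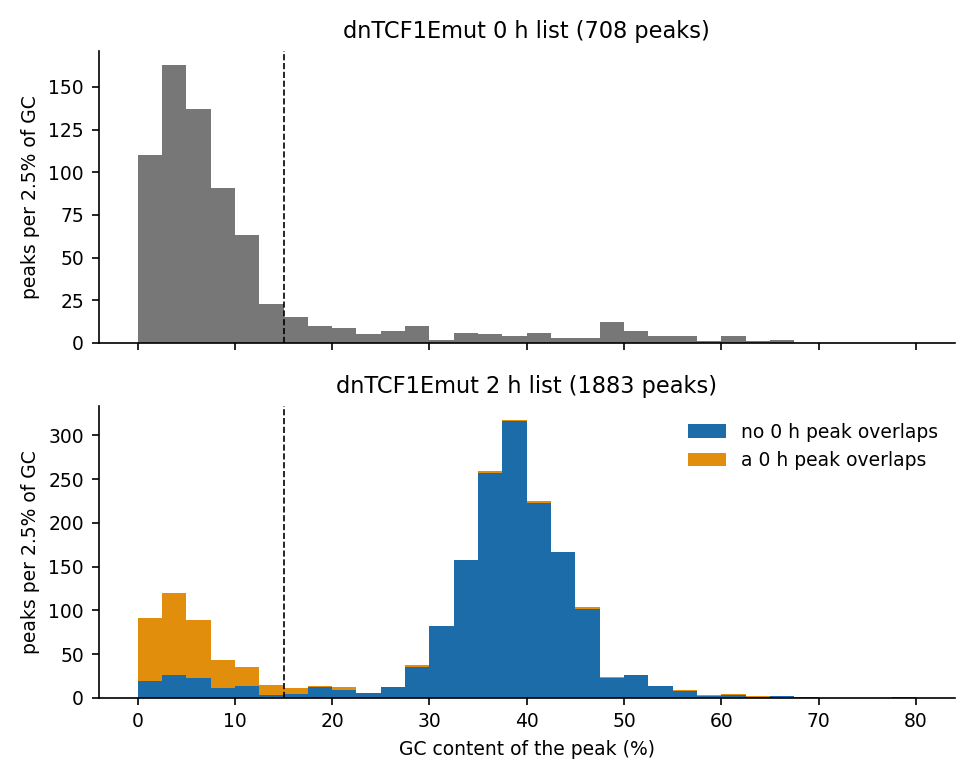
Histograms of GC content (%) of peaks in the dnTCF1Emut 0 h list (top) and 2 h list (bottom, with peaks stacked by whether a 0 h peak overlaps). The dashed line marks 15%, and the peaks to its right without an overlapping 0 h peak are the 1462 new sites, whose median GC content was 38.8%.

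New sites had a median GC content of 38.8% (quartiles 35.5 and 42.3) and a median length of 465 bp. Few peaks lay near the limit of 15%. Just inside it were peaks near MYO16-AS1 (15.8% GC, score 96.97), WISP1 (16.1%, 58.7) and C18orf34 (16.3%, 94.6). Just outside were peaks near RAB3C (14.7%, score 56.2), LINC00333 (14.3%, 61.0) and BASP1P1 (14.2%, 92.4). None of these 6 peaks held a WRE. The 31 new sites with a GC content of 15 to 25% held no WRE at all, where 0 of 31 peaks allows a share of up to 9.68%, taken as 3 counts of 31, and 24 of them were annotated as simple repeats. A limit of 25% in place of 15% left 1431 new sites.

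The median peak score of new sites was 81.9 (quartiles 61.3 and 126). The score is the one MACS gives, which grows as the P-value of the peak falls, and it is not scaled for sequencing depth, which is unknown here. Peaks listed at 0 h and AT-rich had a median score of 84.9, so the score alone did not set the new sites apart. The 95 new AT-rich peaks were lower, with a median of 65.2, and 10 of them reached 100, against 542 of the new sites. CDH18 led the new AT-rich peaks with a score of 234, followed by LAT2 with 153 and NOVA1 with 129.8, and none of the 3 held a WRE. Among AT-rich peaks listed at 0 h, ARHGEF37 had a score of 488 at 2 h and 567 at 0 h. The corresponding values were 402 and 218 near CDH11, and 394 and 599 near MIR302F.

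**Figure D2:**
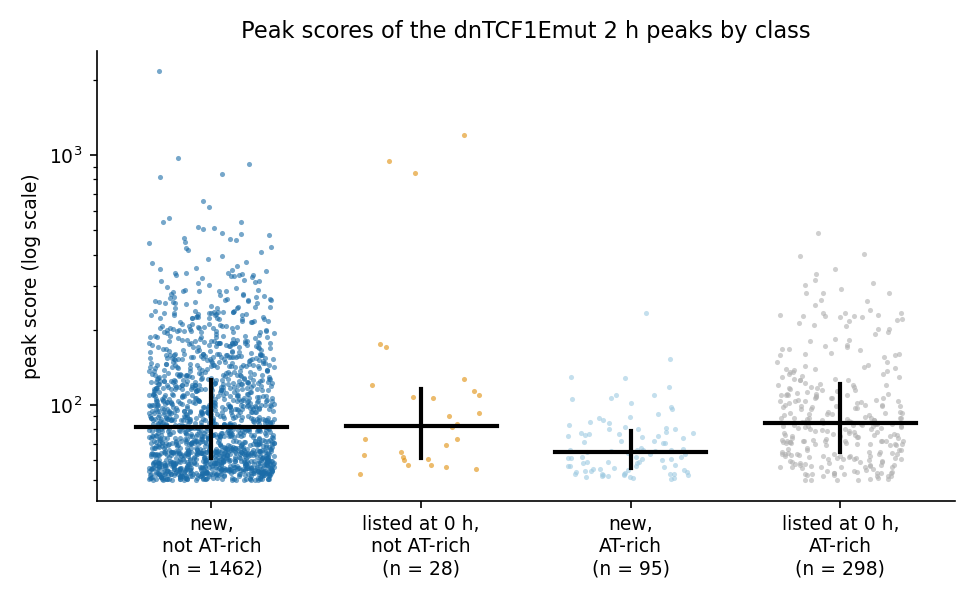
Peak score on a log scale for each of the 1883 dnTCF1Emut 2 h peaks, by class (points), with the median (horizontal bar) and quartiles (vertical bar). The median of new, not AT-rich peaks was 81.9, and scores over 500 belonged to them or to 3 peaks listed at 0 h and not AT-rich.

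A few strong induced peaks were not counted as new because a weak peak was listed at 0 h. The 2 h score near CCDC85A was 1199 and its 0 h score was 61.3. Near ZNF638 the scores were 947 and 67.3, and near CXADR, the receptor for coxsackie virus and adenovirus, they were 851 and 109. These 3 peaks held 4, 7 and 3 WREs. The remaining 25 of the 28 peaks listed at 0 h and not AT-rich had 2 h scores of at most 176. A 2 h score at least 2 times the 0 h score was found at 5 of the 28, against 3.07% of all 326 peaks listed at both times. The 0 h score was at least 2 times the 2 h score at 3 of the 28, against 22.4% of the 326. Of the 28, 12 would have been AT-rich at a limit of 25%.

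WREs were present in 668 of the 1462 new sites (45.7%, interval 43.2 to 48.3), and 231 held at least 2. Of the 28 peaks listed at 0 h and not AT-rich, 6 held a WRE (21.4%, 10.2 to 39.5). In the 0 h list, 11 of 121 peaks that were not AT-rich did so (9.09%, 5.15 to 15.5), and AT-rich peaks almost never did, with 1 of 95 new and 2 of 298 listed peaks. The share of 21.4% moved with the GC limit, to 11.3% of 62 peaks at a limit of 10% and 37.5% of 16 at 25%. The lists also differed in GC content and length, which bear on how many WREs a peak can hold. Between 35 and 45% GC, 479 of 963 new sites held a WRE (49.7%, 46.6 to 52.9), against 5 of 18 peaks of the 0 h list (27.8%, 12.5 to 50.9). The 2 intervals overlap. Their median lengths were 473 and 346 bp. Among new sites, the share with a WRE was 39.3% at 30 to 35% GC, 44.5% at 35 to 40% and 57.4% at 40 to 45%.

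Median scores were higher in peaks with more WREs. The median score was 75.1 for the 794 new sites without a WRE, 88.1 for 437 with 1, 93.5 for 162 with 2, 111 for 41 with 3 and 132 for 28 with at least 4. Longer peaks also had higher scores (Spearman's rho 0.60 over the 1462 peaks, as a description), and longer peaks have more room for motifs. The share of peaks with a WRE rose from 35.6% (30.7 to 40.9) at scores of 50 to 60 to 68.8% (58.8 to 77.3) at 200 to 300. The median length rose from 337 to 612 bp over the same bands. Per kb of peak, the mean number of WREs was 1.46 at scores of 50 to 60 and 1.37 at 150 to 200, and it was higher only from 200 to 300, with 1.92, and from 300, with 2.32. Helper sites were rare. They were found in 81 new sites (5.54%), 45 of which also held a WRE, and 758 new sites (51.8%) held neither motif.

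**Figure D3:**
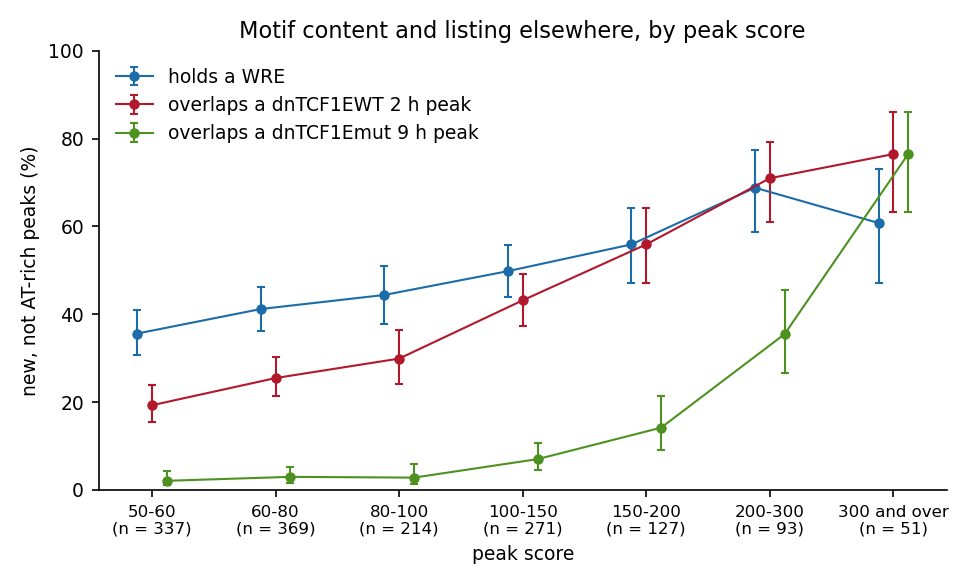
Share of new, not AT-rich peaks (%) that held a WRE, overlapped a dnTCF1EWT 2 h peak or overlapped a dnTCF1Emut 9 h peak, by peak score, with Wilson 95% intervals. The share with a WRE rose from 35.6% to 68.8% and was 60.8% in the highest band, while overlap with the dnTCF1Emut 9 h list rose from 2.08% to 76.5%.

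The 10 strongest new sites lay away from gene starts, none of them within 2 kb of a TSS. Scores below are given for dnTCF1Emut at 2 h, for dnTCF1Emut at 9 h and for dnTCF1EWT, the protein with an intact C-clamp, at 2 and 9 h in its own DLD-1 line. None of the 10 was listed at 0 h for dnTCF1EWT, and their absence at 0 h for dnTCF1Emut is set by the rule that chose the new sites. The strongest was near SYK, a non-receptor tyrosine kinase (chr9:93525822-93526347, 37928 bp from the TSS). Its score was 2169 at 2 h and 975 at 9 h for dnTCF1Emut, and 617 and 2056 for dnTCF1EWT. This peak held neither a WRE nor a Helper site nor a short Helper site (A or G followed by CCG).

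Near MIR1257, in an intron of an overlapping transcript, the scores were 976 and 368 for dnTCF1Emut and 930.5 and 2672 for dnTCF1EWT, and the peak held 10 WREs. ATP6AP1L had scores of 924 and 265 for dnTCF1Emut and 1257 and 164 for dnTCF1EWT, with 1 WRE. At NELF, whose product is named for a role in the migration of hormone-producing neurons, the scores were 837 and 178 for dnTCF1Emut and 3218 and 2003 for dnTCF1EWT, with 6 WREs. The peak near C18orf42 (815 at 2 h and 129 at 9 h) was not listed for dnTCF1EWT at any time and held no WRE. SIRPA, an inhibitory receptor of myeloid cells, had the most WREs of all new sites, 11, with scores of 658 and 109.8 for dnTCF1Emut and 1321 and 55.7 for dnTCF1EWT. HHIP encodes a protein that binds and restrains hedgehog ligands, and its peak had scores of 623 and 149.97 for dnTCF1Emut and 891 and 332 for dnTCF1EWT, with 3 WREs and 1 Helper site. These peaks thus ranged from no WRE to 11.

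Scores near LOC100144602 were 559.8 and 176 for dnTCF1Emut and 492 and 202 for dnTCF1EWT, with a Helper site and no WRE. At WBP4, a spliceosome-associated protein, the dnTCF1Emut scores were 541 and 114 and dnTCF1EWT was listed at 9 h only, with 179. Near RDX, which encodes radixin, a linker of actin to the plasma membrane, they were 541 and 76.1, and dnTCF1EWT was listed at 2 h only, with 142. All 10 were also listed for dnTCF1Emut at 9 h, each with a lower score than at 2 h. For dnTCF1EWT at 2 h, 8 of the 10 were listed, 4 of them with a higher score than for dnTCF1Emut.

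After SIRPA and MIR1257, most WREs were found near UVSSA (10 WREs, score 315), which acts in transcription-coupled DNA repair, LOC729678 (7 WREs, 297) and TSSC1 (7 WREs, 76.3). Among peaks with a Helper site and no WRE, LOC100144602 was followed by FUNDC2P2 (score 518, 4 Helper sites), CTXN3 (463), RNU6-48 (449) and FAM198B (345). All 5 were also listed for dnTCF1EWT at 2 h, with scores of 492, 1046, 557, 102 and 486. Of all 36 new sites with a Helper site and no WRE, 20 overlapped a dnTCF1EWT 2 h peak (55.6%, 39.6 to 70.5).

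Of the new sites, 516 (35.3%, 32.9 to 37.8) overlapped a dnTCF1EWT 2 h peak, which corresponds to 9.26% of that list of 5585. Only the peak near SLC2A10, a glucose transporter of the facilitative family (score 107), overlapped a dnTCF1EWT 0 h peak. At these 516 the median score was 115 for dnTCF1Emut and 159 for dnTCF1EWT, and 181 of them (35.1%) scored higher for dnTCF1Emut. The other 946 new sites had a median score of 71.9. Of the 516, 60.9% (56.6 to 65.0) held a WRE, against 37.4% (34.4 to 40.6) of the others. The difference in WRE content was also present at like scores up to 200. From 67 to 100, WREs were found in 58.5% (49.7 to 66.9) of 123 shared and 35.9% (30.6 to 41.5) of 290 other peaks. From 100 to 200 the shares were 64.4% (57.3 to 70.9) and 40.5% (34.1 to 47.2). At 200 and over they were 66.7% (57.2 to 74.95) of 105 and 64.1% (48.4 to 77.3) of 39 peaks. GC content moved with sharing too, with medians of 40.8% for shared and 37.6% for other peaks, and its part in the difference was not tested. The proteins were made in separate lines, so protein and line cannot be told apart.

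Helper sites were more frequent in peaks shared with the intact C-clamp. Of the 81 new sites with a Helper site, 52 (64.2%, 53.3 to 73.8) overlapped a dnTCF1EWT 2 h peak, against 33.6% (31.2 to 36.1) of the 1381 without. The 7 new sites with at least 2 Helper sites were all shared. Of peaks with neither motif, 182 of 758 were shared (24.0%, 21.1 to 27.2), of those with a WRE only, 282 of 623 (45.3%, 41.4 to 49.2), and of those with both, 32 of 45 (71.1%, 56.6 to 82.3). Median GC content was 42.3% in peaks with a Helper site and 38.6% in those without. Peaks with a Helper site also had higher scores, with a median of 101.3 against 81.0, and overlap with dnTCF1EWT rose with the score. Whether GC content or score accounts for the difference was not tested.

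At 9 h, 133 new sites (9.10%, 7.73 to 10.7) overlapped a dnTCF1Emut peak, 37.3% of that list of 354. The share grew with the score, from 2.08% (1.01 to 4.22) of 337 peaks at 50 to 60 to 76.5% (63.2 to 86.0) of 51 peaks at 300 and over. The median score of the 133 was 211 at 2 h and 74.7 at 9 h, and 118 of them scored higher at 2 h. A peak that falls below the score at which lists end is not listed, and how deep each library was is unknown.

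Most new sites lay far from genes or in introns. HOMER placed 824 (56.4%) between genes and 598 (40.9%, 38.4 to 43.4) in introns. Exons held 14, transcription termination sites 9, 3′ untranslated regions 6 and 5′ untranslated regions 1, and 10 were annotated as promoter. The median distance to the nearest TSS was 57264 bp. Between 2 and 10 kb there were 158 new sites, between 10 and 30 kb 277, between 30 and 100 kb 482, between 100 and 500 kb 444, and 60 lay farther away. The share with a WRE was 48.8% (34.3 to 63.5) within 2 kb, 43.9% (39.4 to 48.6) between 100 and 500 kb and 24 of 60 peaks (28.6 to 52.6%) farther away, with overlapping intervals.

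Within 2 kb of a TSS there were 41 new sites (2.80%, 2.07 to 3.78), near 40 gene names, with scores of 50.02 to 297 and a median of 81.0. A WRE was present in 20 of them and a Helper site in 7, and 19 were in introns. The 2 h peaks listed at 0 h and not AT-rich had 2 of 28 in this range (7.14%, 1.98 to 22.6). Of the 41, 18 overlapped a dnTCF1EWT 2 h peak, 17 of them with a higher score for dnTCF1EWT, and 4 were listed for dnTCF1Emut at 9 h.

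At SP5, the dnTCF1Emut score was 153 at 2 h and the dnTCF1EWT scores were 1213 at 2 h and 506 at 9 h. The YAP1 promoter peak was near the end of the list with 52.4, where dnTCF1EWT had 494 at 2 h. Another new site of YAP1, 80286 bp from the TSS, had 238.8, where dnTCF1EWT had 87.1 at 2 h. At TMEM177, whose product is a mitochondrial membrane protein, dnTCF1Emut had scores of 228 at 2 h and 99.9 at 9 h, and dnTCF1EWT had 1053 and 488. This peak held 5 WREs and 1 Helper site. CDCA7, a MYC-responsive gene, had 138 for dnTCF1Emut and 466 for dnTCF1EWT at 2 h, with 1 Helper site and no WRE. SMAD7, an inhibitor of TGF-β signaling, had 88.1 and 268 with 2 WREs. In these 5 promoters the mutant was the weaker listed peak.

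IFITM2, an interferon-induced membrane protein gene, had 70.5 for dnTCF1Emut and 248 for dnTCF1EWT at 2 h. ANO4, a member of the anoctamin family of membrane proteins, had a score of 286 and was not listed for dnTCF1EWT. LOC729678 had 297, against 315 for dnTCF1EWT at 2 h. DISC1 (222), ARPC2 (211), a subunit of the Arp2/3 actin-nucleating complex, and DUSP16 (138), a phosphatase of MAP kinases, were all higher for dnTCF1EWT, with 438, 265 and 214. MIR128-1 (198), LOC100506025 (127) and IGFL2 (124) were not listed for dnTCF1EWT at 2 h, nor was MIR10A (133), which lies in a HOX cluster. MIR10A was listed for dnTCF1EWT at 9 h, with 79.5, and UGT2B10 (72.8) was listed only for dnTCF1Emut.

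The natural killer cell receptor genes KLRC3, KLRC2 and KLRC4, which lie beside each other on chromosome 12, each had a peak over exon 1, with scores of 152, 148 and 116 and 279, 204 and 205 for dnTCF1EWT. KLRC3 had a further peak with 53.0. These genes are near-identical copies, and reads may be split among them, so their values are uncertain. Scores were low at the promoters of CDH17 (55.3), the liver-intestine cadherin, TSPAN8 (58.7), a tetraspanin, and TMEM45B (56.3). The remaining genes with scores of 75 to 95 were ASPH, PTPRR, CEP76, ATP2C1 and ZBTB10. Below 70 were ROCK2, TTTY9A, DDX59, APPL1, AGTPBP1, SNORD45B, TOR1AIP2, LINC00161, NCAPG2, PRSS3, ZNF726 and BRD7P3.

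The new sites were given 1197 nearest gene names, 1001 of which had a single new site. AREG, which encodes the EGF receptor ligand amphiregulin, and RNU5F-1 had 6 each, KC6 had 5, and ASMT, the last enzyme of melatonin synthesis, had 4. Scores near AREG ran from 76.1 to 286, and those near RNU5F-1 from 50.6 to 115. The AREG site with a score of 145 lay within 1 kb of 0 h peaks with scores of 88.4 and 279. The stronger of these was still listed at 2 h, with 217. The range near KC6 was 52.8 to 71.3. ASMT lies in a region shared by chromosomes X and Y, and its peaks on X (scores 459 and 109) and on Y (443 and 55.5) are at the same places of the shared sequence, so these 4 peaks stand for 2 sites.

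The gene lists that follow were assembled with earlier results of these data known, and the counts are descriptions. Of 20056 protein-coding genes of the RefSeq table, 942 were the nearest gene of a new site, which is 4.7%. The lists were not matched for the length of the region to which each gene is nearest. Over all new sites, 45.7% held a WRE, 35.3% were shared with dnTCF1EWT at 2 h and the median score was 81.9. The nearest gene can be far away, and 958 of the 1462 new sites lay within 100 kb of its TSS. Of 17 feedback regulators of Wnt signaling, 4 had a new site, 6 peaks in all with a median score of 85.0, of which 4 held a WRE. DKK1, a secreted inhibitor of the Wnt coreceptor, had 214 at 129670 bp from the TSS, not listed for dnTCF1EWT at 2 h. It also had 71.8 at 39072 bp, where dnTCF1EWT had 173, and both peaks held a WRE. WIF1, which binds Wnt proteins, had 97.7, with 86.0 for dnTCF1EWT. RNF43, a ubiquitin ligase that removes Frizzled receptors, had 72.3, with 134 for dnTCF1EWT, and 56.0, not listed for it. AXIN2, which promotes the destruction of β-catenin, and LGR5, the crypt stem cell receptor, had no peak in the dnTCF1Emut 2 h list. The dnTCF1EWT 2 h list held AXIN2 peaks of 449.6, 327 and 206 and an LGR5 peak of 809. Absence from a list does not show absence of binding, because depth is unknown. The study reported that dnTCF1Emut at first lowered AXIN2 transcription to a similar degree as dnTCF1EWT.

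Among 16 TCF/LEF factors and cofactors, 4 had a new site. The corepressor genes led, with TLE1 at 314, 686283 bp from the TSS, and TLE4 at 272 and 63.4. CTNNB1, which encodes β-catenin, had 72.9 at 225295 bp from the TSS, where dnTCF1EWT had 455. TCF7L2 had 53.7 at 143518 bp. Of 47 Wnt ligands, receptors and transducers, 4 had a new site. They were the receptor genes FZD7 (181, with 418 for dnTCF1EWT) and FZD5 (115), the ligand gene WNT16 (90.9 and 63.3) and RSPO3 (78.6), whose product strengthens Wnt signals, and 1 of these 5 peaks held a WRE.

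Transcription factors of the crypt or downstream of Wnt had 15 of 32 genes with a new site and 26 peaks of median score 74.2, 15 with a WRE. Of the 26, 8 lay within 100 kb of the TSS. TBX3 had 145 as the highest of 4 peaks, ETS2 134, MSX1 125 with 5 WREs and KLF5 118. These peaks lay 84460, 145113, 103613 and 406656 bp from the TSS, in that order. CDX2, a master factor of intestinal identity, had 136 at 2 h and 168 at 9 h for dnTCF1Emut and 1835 for dnTCF1EWT at 2 h. Surface and signaling genes of the crypt had 4 of 31 genes with a new site and 11 peaks. EPHA4, an ephrin receptor, had the highest with 397 and 3 WREs, and was listed at 138 at 9 h and not for dnTCF1EWT. JAG1, a Notch ligand, had 228 at 2 h and 164 at 9 h with 2 WREs, where dnTCF1EWT was listed only at 9 h with 95.8. EGFR, the receptor of amphiregulin, had 64.3.

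**Figure D4:**
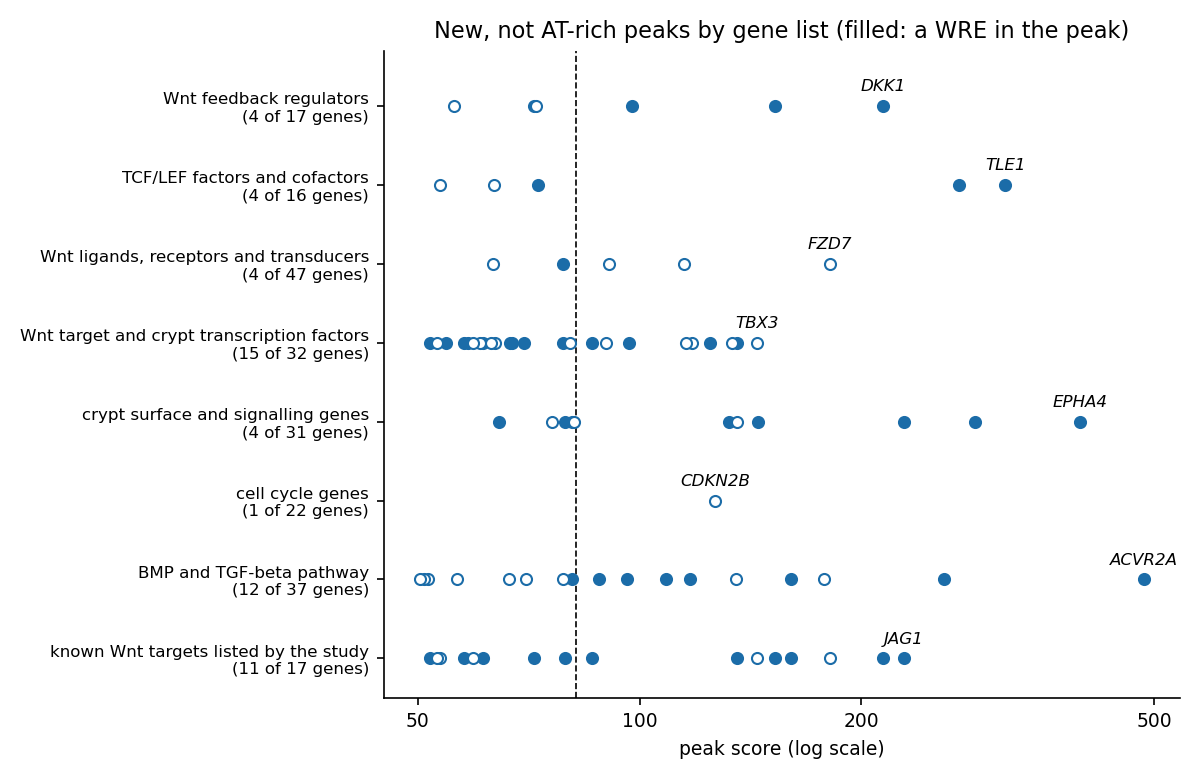
Peak score on a log scale for new, not AT-rich peaks whose nearest gene was in 1 of 8 gene lists, with filled points for peaks that held a WRE and the highest-scoring gene plotted in each list named. The dashed line is the median score of all new, not AT-rich peaks, 81.9, and the highest point is ACVR2A with 484.

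BMP and TGF-β signaling, which opposes Wnt signaling along the crypt, had 12 of 37 genes with a new site and 17 peaks of median score 88.1, 8 with a WRE. Of the 17, 7 lay within 100 kb of the TSS. ACVR2A, an activin receptor, had 484 at 571844 bp from the TSS and was not listed for dnTCF1EWT. The receptor gene TGFBR2 had 259 at 378579 bp, and TGIF1, which encodes a corepressor of SMAD proteins, had 135 at 3078 bp. The ligand genes BMP4, BMP2 and TGFB3 had 161, 117 and 108 at 145453, 62883 and 159391 bp. For TGFBR2, BMP4, BMP2 and TGFB3 the dnTCF1EWT scores at 2 h were 202, 71.0, 68.8 and 73.9, so each was the lower of the pair. ID2 (96.1, with 159 for dnTCF1EWT) and SMAD7 were the other way around. Of the 7 shared peaks of this list, 5 were higher for dnTCF1Emut, against 181 of all 516 shared new sites (35.1%). Of 22 cell cycle genes only CDKN2B, an inhibitor of cyclin-dependent kinases, had a new site (127). The study's own list holds known Wnt targets that it reported as downregulated when dnTCF1EWT was induced, so its count is no independent evidence. Its entry TCF4 was read as TCF7L2, for which that name is also used. It had 11 of 17 genes with a new site and 18 peaks, of which 13 held a WRE, with a median score of 111. JAG1 led it, and DKK1, FZD7, BMP4 (161), SP5 and TBX3 were among its other genes.

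Repeats carried 510 of the new sites. Long terminal repeats (LTRs) accounted for 198, LINEs for 141, simple repeats for 68 and SINEs for 53. The most frequent named element was MER11A, the LTR of an endogenous retrovirus of the ERVK family, with 54 new sites on 20 chromosomes. No 0 h peak was annotated to MER11A, among 1907 for dnTCF1EWT and 708 for dnTCF1Emut. For dnTCF1EWT there were 37 of 5585 peaks at 2 h and 75 of 12996 at 9 h. For dnTCF1Emut there were 54 of 1883 at 2 h and 7 of 354 at 9 h. A WRE was found in 51 of the 54 (94.4%, 84.9 to 98.1) and in 43.8% (41.3 to 46.4) of the other 1408 new sites. At least 2 WREs were found in 46 of the 54 and in 185 of the others. The median score at MER11A was 78.8, close to the 81.9 of the other new sites, and its strongest peaks were near HHIP (623), ZNF675 (331), LOC388692 (312), P2RY10 (244) and TSPAN8 (217). Copies of an element share sequence and so share motifs, and the treatment of reads that match several copies is not given in the sources used here.

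**Figure D5:**
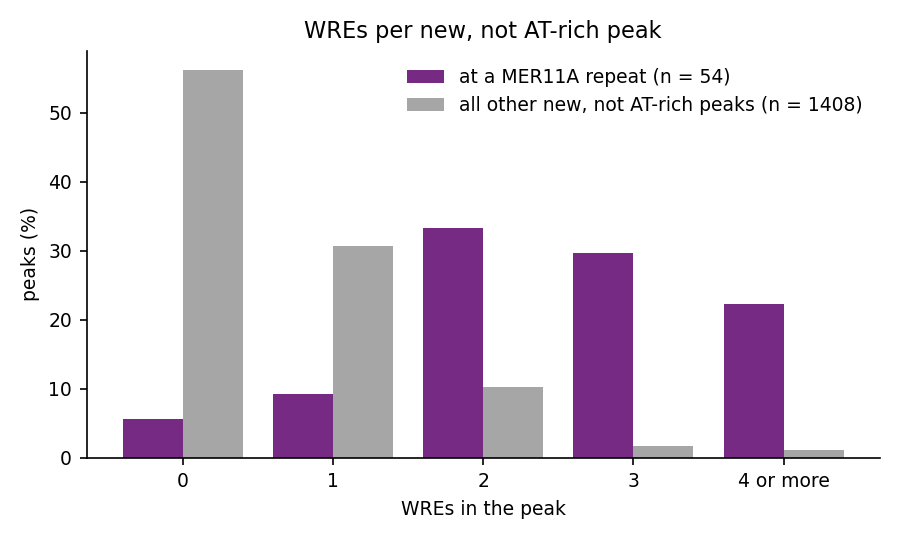
Percentage of peaks by number of WREs for new, not AT-rich peaks at MER11A (n = 54) and all others (n = 1408). Of the MER11A peaks 33.3% held 2 WREs and 22.2% held 4 or more, where 56.2% of the others held none.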

How the data were processed

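The 6 lists of ChIP-seq peaks, 1 per condition, were used as deposited by the authors, who called peaks on pooled duplicates and annotated them on hg19. The submitters' processing notes name CASAVA 1.8.2, Bowtie2 2.0.0, MACS 1.3 and HOMER 3.16. Peak scores were deposited by the authors as MACS gave them, and GC content is deposited as a fraction and given here in percent. Lists in BED format hold the same regions and were not used. Read depth is unknown from the lists, and precision is given as Wilson 95% intervals, for counting error only.

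Peaks were compared by overlap of at least 1 base, taking the highest-scoring overlapping peak. No test was run, because each condition is 1 list. Members, gene lists and rules were chosen with earlier results of these data known. Named peaks were the 10 highest-scoring new sites, all within 2 kb of a TSS, up to 6 genes per gene list by score, the 5 with most WREs, the 5 strongest with a Helper site and no WRE, the 5 gene names with most peaks, 3 on each side of the GC limit, and the 3 strongest of every other class. AXIN2, LGR5, SLC2A10 and the MER11A peaks were named after their values were seen, and a few genes that the rule names are not reported here or drawn, though list counts include them. Alternatives changed overlap, the 0 h list, GC limit, score, promoter definition, chromosome Y and repeats. RefSeq promoters of GRCh38.p14 matched 27 of the 41 promoter peaks by symbol. Overlap and intervals were tested on simulated data. Python 3.11.15, pandas 2.3.3, NumPy 2.4.6, SciPy 1.17.1, statsmodels 0.14.6 and matplotlib 3.10.9 were used.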

Additional observations from a re-analysis of the deposited data

How the results depend on the processing

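No paired analysis was possible because each condition is 1 pooled list, and for the same reason no replicate could be left out. Of 82 recomputed values, 66 stayed within the interval of the reported value (for the number of peaks, within 1.5 times of it) and 16 moved. With peaks above a score of 67, new sites numbered 954 with a median score of 109, and 49.9% held a WRE, 43.6% overlapped a dnTCF1EWT 2 h peak and 12.6% a dnTCF1Emut 9 h peak. At scores of 100 or more these values were 542, 150.4, 55.5%, 54.1% and 20.1%, and 45.5% of 11 peaks listed at 0 h and not AT-rich held a WRE. HOMER's own promoter annotation gave 0.684% in place of 2.80% within 2 kb of a TSS, and counting a peak as shared only where 50% or more of each peak was covered gave 28.6% shared with dnTCF1EWT at 2 h. Without peaks annotated as repeats, an alternative chosen after seeing the data, there were 952 new sites with a median score of 86.7, and 44.1% were in introns. The causes were not tested, apart from the smaller lists that these limits leave by construction. The GC limit, chromosome Y and the 0 h list used moved none of the 8 values beyond these ranges, and neither did leaving out MER11A. The range is wide for peaks listed at 0 h and not AT-rich. Their share with a WRE was 11.3% of 62 at a GC limit of 10% and 37.5% of 16 at 25%. For new sites it was 45.2% and 46.7%.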

Other observations

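A set of long peaks lay on simple repeats with a unit of 5 bases. Of 19 new sites annotated to 3 such repeats, 18 were over 1000 bp long, out of 37 such long peaks among all new sites, and the median lengths for the 3 repeats lay between 2039 and 2758.5 bp. Their median scores lay between 63.6 and 94.7, and none of the 19 held a WRE. MER4E, an LTR of the ERV1 family, had 28 new sites, of which 8 held a WRE, and no peak of either 0 h list was annotated to it.

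Nearest genes were protein-coding for 1155 new sites, and 61 new sites had as nearest a gene whose name begins with MIR. Chromosome Y held 19 new sites. Within 10 kb of each other there were 65 neighbouring pairs of new sites, and 2 new sites lay within 1 kb of a 0 h peak.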
